A study of Mus musculus with 12 samples.

Results

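The inflammasome, the inflammatory caspases and IL-1 were followed in CT26 mouse colon carcinoma cells through 9 genes, chosen by name out of the 23636 gene symbols measured: NLRP3, PYCARD, NEK7, CASP1, CASP4, GSDMD, IL1A, IL1B and IL1RN. They were chosen with earlier results of these data known, so the shares over all genes printed beside them serve as description only. RNA sequencing had been done on 12 libraries of the CT26 tumor cell line, labelled as biological replicates and 3 to a group. The 4 groups are no treatment, CX3CL1, IFN-γ and CX3CL1+IFN-γ, where CX3CL1 was given at 2 µg/ml and the dose of IFN-γ was 100 ng/ml, each for 8 hours. For the combined treatment the study's text also names TNF-α, with CX3CL1 added afterwards, whereas the labels and the legend name IFN-γ and CX3CL1 only. CX3CL1 (fractalkine) is a chemokine, IFN-γ is the cytokine of activated T and NK cells, and the comparisons ask whether CX3CL1, alone or on top of IFN-γ, changes the expression of inflammasome genes in tumor cells. All 4 groups are the same cultured line with no other genetic change stated, and whether the replicates were separate cultures is not described beyond the word biological, so the p-values measure the spread between these libraries. The values are TPM (transcripts counted per 1000000 transcripts of a library). In this unit reads are scaled to transcript length and to the library's total, which is meant to make levels comparable between genes. How these values were computed is not given in the sources used here, so comparisons between genes hold only as far as the listed values do.

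The inflammasome is a protein complex in the cytosol that forms when a sensor such as NLRP3, helped by the kinase NEK7, detects infection or damage and, through the adaptor ASC (the product of PYCARD), activates caspase-1 (CASP1). Caspase-1 cuts the precursors of IL-1β and IL-18 into active cytokines and cuts gasdermin D (GSDMD), which then opens pores in the cell membrane. The mouse gene CASP4 encodes the protein long called caspase-11, which binds bacterial lipopolysaccharide in the cytosol and also cuts gasdermin D. IL-1α (IL1A) and IL-1β (IL1B) signal through the receptor IL1R1, and the receptor antagonist IL1RN blocks it. In macrophages, NLRP3 and IL1B are known to be transcribed after a priming signal that works through NF-kB, and CASP4 and the guanylate-binding proteins are known targets of interferon.

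Promoter sequences are shown for 3 of the genes: CASP4 and NLRP3, which hold matches to the NF-kB consensus, and CASP1, the neighbour of CASP4, which holds none. Each is the 250 bases before the RefSeq start of transcription (GRCm38.p6, plus strand), read 5′ to 3′, with the matches to the NF-kB consensus in capitals. They lie at chr9:5308599-5308848 for CASP4, chr11:59541319-59541568 for NLRP3 and chr9:5298267-5298516 for CASP1.
CASP4: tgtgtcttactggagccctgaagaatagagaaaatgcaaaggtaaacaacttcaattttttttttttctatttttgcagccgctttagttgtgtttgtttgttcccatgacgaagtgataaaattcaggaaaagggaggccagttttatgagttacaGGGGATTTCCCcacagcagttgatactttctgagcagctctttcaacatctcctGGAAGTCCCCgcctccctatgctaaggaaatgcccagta
NLRP3: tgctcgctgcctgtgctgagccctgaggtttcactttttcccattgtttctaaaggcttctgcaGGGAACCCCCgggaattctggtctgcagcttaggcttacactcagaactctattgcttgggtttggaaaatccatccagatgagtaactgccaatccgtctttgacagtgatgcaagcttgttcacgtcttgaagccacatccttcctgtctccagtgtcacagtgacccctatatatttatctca
CASP1: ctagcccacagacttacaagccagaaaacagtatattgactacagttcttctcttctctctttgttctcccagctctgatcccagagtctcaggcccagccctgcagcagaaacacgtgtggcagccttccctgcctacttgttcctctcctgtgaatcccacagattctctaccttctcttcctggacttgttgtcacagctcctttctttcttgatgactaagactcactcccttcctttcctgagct
The CASP4 window held 3 matches, which began 93, 92 and 39 bases before the start, and the first and second overlap each other. A second annotated start of CASP4 shares most of this window and the same matches. NLRP3 held 1 match, 186 bases before the start, and its second annotated start held none. RefSeq windows were found for 8 of the 9 genes, all but GSDMD, and no match to the NF-kB consensus was found in the windows of PYCARD, CASP1, IL1A, IL1B, IL1RN and NEK7. The interferon-stimulated response element GAAANNGAAA and the gamma-activated sequence TTCNNNGAA, searched on both strands like the NF-kB consensus, had no match in any of these windows. Of all 32817 promoter windows of this length, 7.25% held the NF-kB consensus, 2.97% the first of these elements and 7.01% the second. A match is a description of the letters and not evidence of binding.

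CASP1 and CASP4 are neighbours on chromosome 9 (GRCm38). CASP1 runs from 5298517 to 5307265, CASP4 begins 1562 bases further on and runs from 5308828 to 5336783, and CASP12 follows after another 8646 bases, from 5345430 to 5373032, all on the plus strand. IL1A (129299610 to 129309972) and IL1B (129364570 to 129371139) lie 54597 bases apart on the minus strand of chromosome 2, where IL1RN runs from 24336853 to 24351494 on the plus strand. NLRP3 lies on chromosome 11 from 59541568 to 59566956 and GSDMD on chromosome 15 from 75862327 to 75867408, both on the plus strand. PYCARD lies on chromosome 7 from 127989708 to 127993867 and NEK7 on chromosome 1 from 138482875 to 138620141, both on the minus strand. PYCARD, IL1A, IL1B and NEK7 overlap other annotated loci, and the libraries were strand-specific, but whether strand was used in counting is not given in the sources used here.

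The libraries were alike in breadth, with 10613 to 10824 symbols at 1 TPM or more, and replicates correlated at 0.994 to 0.998 (Pearson r of log2(TPM + 1) over all symbols). TPM carries no depth, so the depth is unknown. CX3CL1 replicate 2 stood apart from its group, its log2 values differing by a median of 0.266 and 0.262 from those of replicates 1 and 3, which differed from each other by 0.141. A value of exactly 0 need not mean that no transcript was there, since RPL26, which encodes a protein of the ribosome, was listed at 0 in every library. The leukocyte genes CD3E and ADGRE1 were listed at 0 or at most 0.0131 TPM, PTPRC at most 0.0441 TPM and CSF1R at most 0.0283 TPM, while CD14 (group means 26.9 to 36.6 TPM) and CD68 (11.7 to 15.8 TPM) made up most of the sum of 14 leukocyte markers. That sum was 36.0 to 47.1 TPM without treatment, 38.2 to 69.5 TPM with CX3CL1, 37.9 to 60.5 TPM with IFN-γ and 42.9 to 77.1 TPM with CX3CL1+IFN-γ, and its part in the results was not tested. Of the epithelial markers, EPCAM was listed at 0 in every library, CDH1 was at most 0.0430 TPM and KRT18 was present at group means of 45.3, 29.6, 27.5 and 21.5 TPM, in the order no treatment, CX3CL1, IFN-γ and CX3CL1+IFN-γ. KRT20 was at 12.8, 8.41, 11.7 and 7.24 TPM in that order, and its IFN-γ libraries (9.70 to 14.5 TPM) overlapped the untreated ones (10.8 to 16.8 TPM). The sum of 8 epithelial markers was 51.2 to 64.7, 33.6 to 44.4, 35.7 to 41.8 and 24.9 to 33.2 TPM in that order, lower in every treated library than in any untreated one. The sum of 8 mesenchymal markers, mostly VIM, was 5020.0 to 6245, 4275 to 5042, 3691 to 4712 and 2776 to 4116 TPM, so CX3CL1 and no treatment overlapped. The means of ZEB1 (15.6 and 17.6 TPM) and ZEB2 (18.6 and 25.5 TPM) were higher with CX3CL1+IFN-γ than without treatment, and those of the other mesenchymal markers were lower. These sums moved with the treatments, and their part in the results was not tested. CX3CR1, the receptor of CX3CL1, was at most 0.154 TPM. This is RNA, and the study reports high CX3CR1 protein on CT26 cells by flow cytometry. In bulk RNA, fewer cells of a type and less RNA per cell cannot be told apart.

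**Figure D1:**
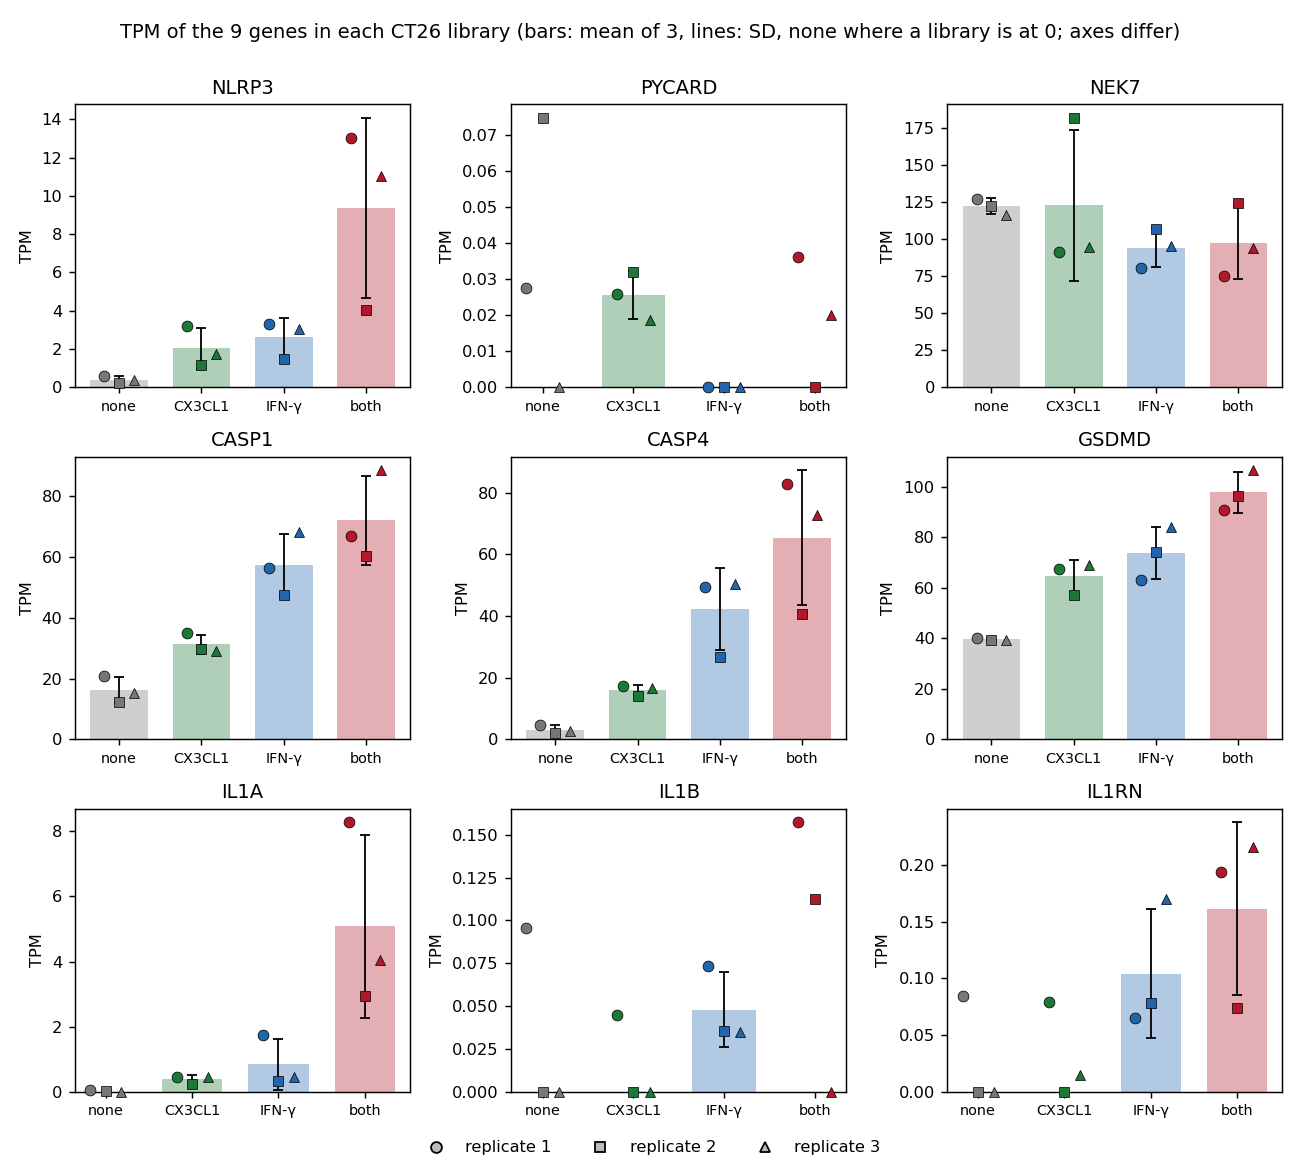
TPM of the 9 genes (y axis, its own scale in each panel) in each of the 12 libraries (points, 3 per group), with the group mean (bar) and SD (line) where no library was listed at 0. CASP4 and NLRP3 climb from near the bottom of their panels without treatment to 40.7 to 82.6 TPM and 4.04 to 13.0 TPM with CX3CL1+IFN-γ, while PYCARD, IL1B and IL1RN are nowhere above 0.216 TPM.

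The 9 genes fell into 3 ranges of level. NEK7, GSDMD, CASP1 and CASP4 were present in every library, between 1.97 TPM (CASP4 without treatment) and 181.9 TPM (NEK7 with CX3CL1). NLRP3 and IL1A were low without treatment and reached several TPM with CX3CL1+IFN-γ. PYCARD, IL1B and IL1RN stayed at or near the floor throughout. Without treatment the order from the highest was NEK7, GSDMD, CASP1, CASP4 and NLRP3, with no overlap between neighbours, and the other 4 genes overlapped. With IFN-γ and with CX3CL1+IFN-γ, neighbours among NEK7, GSDMD, CASP1 and CASP4 overlapped. The 6 genes that averaged 0.2 TPM or more (all but PYCARD, IL1B and IL1RN) entered the limma fit on log2(TPM + 1) with all other symbols that passed this filter, and a gene is said to have risen where its p-value, adjusted over all 11878 symbols, was under 0.05. Comparisons with the same control libraries are not independent of each other. A permutation test of 1 gene, exact and two-sided, cannot go below 0.1 with 3 libraries in each group.

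With CX3CL1 alone, CASP4, CASP1 and GSDMD rose, 3 of the 6 genes tested, where 1.78% of all genes tested rose. CASP4 rose most, from 1.97 to 4.79 TPM without treatment to 14.1 to 17.3 TPM. For 5 of the 6 (the same 3 with NLRP3 and IL1A), every CX3CL1 library lay above every untreated library, as it did for 5.50% of all genes tested. With IFN-γ alone, 4 of the 6 rose (CASP4, CASP1, NLRP3 and GSDMD), where 5.91% of all genes rose, and 5 of the 6 had no overlap upwards (20.6% of all genes). IL1A passed with IFN-γ too when the replicate number was a block in the fit (limma, adjusted p = 0.0343). On top of IFN-γ, CX3CL1 raised 1 of the 6, IL1A, where 0.345% of all genes rose, and 3 of the 6 (IL1A, NLRP3 and GSDMD) had every library higher, against 8.54% of all genes. With the replicate number as a block in the fit, NLRP3 passed there as well (limma, adjusted p = 0.00543). On top of CX3CL1, IFN-γ raised 5 of the 6, all but NEK7, where 3.76% of all genes rose and 14.0% had every library higher. None of the 6 fell in any comparison. The medians of the 6 log2 fold changes were 0.81 for CX3CL1, 1.11 for IFN-γ, 0.51 for CX3CL1+IFN-γ against IFN-γ and 1.43 against CX3CL1, beside medians over all genes tested of -0.02, 0.03, -0.00 and 0.04. In 5 of the 6 genes, again all but NEK7, the group means rose in the order no treatment, CX3CL1, IFN-γ and CX3CL1+IFN-γ, an order that 11.9% of all genes tested showed.

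**Figure D2:**
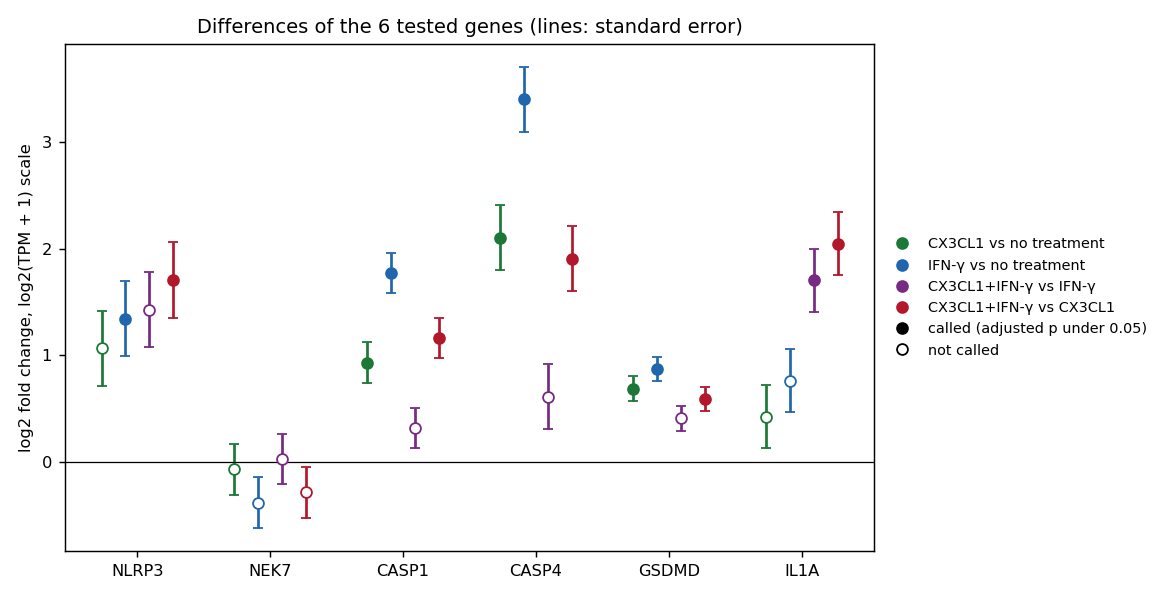
Log2 fold changes on the log2(TPM + 1) scale (y axis) of the 6 tested genes (x axis) in 4 comparisons (colors), with standard errors as lines; filled points have an adjusted p under 0.05. The highest point is CASP4 with IFN-γ at 3.40, IL1A alone is filled for CX3CL1+IFN-γ against IFN-γ, and all 4 points of NEK7 are open.

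Among the sensor and its partners, NLRP3 passed where IFN-γ was added. With CX3CL1 alone NLRP3 was higher in every library, but it did not pass with 1 TPM added and no block. NEK7 was called in no comparison, and PYCARD was not tested. NLRP3, the sensor, was at 0.592, 0.220 and 0.368 TPM (replicates 1, 2 and 3) without treatment and at 3.20, 1.14 and 1.72 TPM with CX3CL1. With IFN-γ it was at 3.32, 1.49 and 3.03 TPM, and with CX3CL1+IFN-γ at 13.0, 4.04 and 11.0 TPM. Each treated group lay wholly above no treatment, the CX3CL1 and IFN-γ groups overlapped, and the CX3CL1+IFN-γ group lay wholly above both. The means were 0.393 ± 0.188, 2.02 ± 1.06, 2.61 ± 0.982 and 9.35 ± 4.71 TPM (SD, n = 3). In each of the 4 groups replicate 1 was the highest and replicate 2 the lowest.

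NLRP3 rose with IFN-γ, with a log2 fold change of 1.34 (SE 0.35, adjusted p = 0.0348, limma), and on top of CX3CL1 with IFN-γ by 1.71 (adjusted p = 0.0145). With CX3CL1 alone its log2 fold change of 1.07 did not pass (SE 0.35, adjusted p = 0.253), although all 3 libraries were higher. That scale understates changes of low genes: with 0.1 in place of 1 TPM added, the CX3CL1 value was 2.06 and passed (adjusted p = 0.0429), and the IFN-γ value was 2.45. Libraries with the same replicate number were 5.40, 5.21 and 4.66 times as high with CX3CL1 as without treatment. A block for the replicate number made the CX3CL1 difference pass (limma, adjusted p = 0.0101), although these groups did not meet the check for pairing. On top of IFN-γ, CX3CL1 gave 1.43 (SE 0.35), which did not pass (adjusted p = 0.196). The libraries with the same number were 3.92, 2.70 and 3.63 times as high with CX3CL1+IFN-γ as with IFN-γ, and with the replicate number as a block the difference passed (adjusted p = 0.00543). It also passed without CX3CL1+IFN-γ replicate 2 (adjusted p = 0.0113). The call with IFN-γ was lost without any 1 of 5 of the 6 libraries compared, all but IFN-γ replicate 2, with adjusted p of 0.0600 to 0.130, and the call of CX3CL1+IFN-γ against CX3CL1 was lost without CX3CL1 replicate 2 (adjusted p = 0.0517), CX3CL1 replicate 3 (0.0524), CX3CL1+IFN-γ replicate 1 (0.0640) or CX3CL1+IFN-γ replicate 3 (0.0757). With no filter on low genes both calls were lost (adjusted p = 0.0908 and 0.0515). Both held with the replicate number as a block (limma, adjusted p = 8.7e-04 and 3.2e-04), in groups that met the check for pairing.

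NEK7, the kinase that binds NLRP3, was the most abundant of the 9 genes in 3 of the 4 groups. It was at 127.4, 122.3 and 116.6 TPM without treatment and at 91.4, 181.9 and 95.0 TPM with CX3CL1, where the high value was that of replicate 2, the library that stood apart. With IFN-γ it was at 80.7, 107.1 and 95.1 TPM, every library below those without treatment, and with CX3CL1+IFN-γ at 75.0, 124.2 and 93.9 TPM. Its log2 fold change was -0.38 with IFN-γ (SE 0.24, adjusted p = 0.383) and -0.07 with CX3CL1 (SE 0.24, adjusted p = 1). Without CX3CL1 replicate 2 the CX3CL1 value was -0.39 (adjusted p = 0.392).

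PYCARD, the gene of the adaptor that joins NLRP3 to caspase-1, was close to 0 in all 12 libraries and was not tested. It was listed at 0.0275, 0.0747 and 0 TPM without treatment, at 0.0257, 0.0320 and 0.0187 TPM with CX3CL1, at 0 in all 3 IFN-γ libraries, and at 0.0360, 0 and 0.0201 TPM with CX3CL1+IFN-γ. The highest of these values, 0.0747 TPM, was in an untreated library. PYCARD was thus among the lowest 4 of the 9 genes in every group, while GSDMD in the same libraries was never below 39.3 TPM.

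The 2 inflammatory caspases rose together, CASP4 more than CASP1. CASP4, the mouse gene of caspase-11, was at 4.79, 1.97 and 2.57 TPM without treatment and at 17.3, 14.1 and 16.6 TPM with CX3CL1. With IFN-γ it was at 49.3, 26.8 and 50.4 TPM, and with CX3CL1+IFN-γ at 82.6, 40.7 and 72.7 TPM. No treatment, CX3CL1 and IFN-γ did not overlap, whereas replicate 2 of CX3CL1+IFN-γ lay below replicates 1 and 3 of IFN-γ, and replicate 2 was the lowest library in every group. The means were 3.11 ± 1.49, 16.0 ± 1.66, 42.2 ± 13.3 and 65.4 ± 21.9 TPM (SD, n = 3).

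CASP4 rose with CX3CL1 by a log2 fold change of 2.10 (SE 0.30, adjusted p = 0.00219) and with IFN-γ by 3.40 (SE 0.30, adjusted p = 1.3e-05), a ratio of means of 13.6. It rose on top of CX3CL1 by 1.91 (SE 0.30, adjusted p = 0.00297). These 3 calls held under each of the 8 alternative settings and without any 1 of the 6 libraries compared. On top of IFN-γ, CX3CL1 gave 0.61 (SE 0.30, adjusted p = 0.975), with same-number ratios of 1.68, 1.52 and 1.44, and 0.32 without IFN-γ replicate 2 (adjusted p = 1). The interaction, which is the CX3CL1 effect with IFN-γ minus that without, was -1.49 (SE 0.43, unadjusted p = 0.00439, adjusted p = 0.580) and was not called; with the replicate number as a block it was called (adjusted p = 0.0226).

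CASP1, whose product matures IL-1β, was at 20.8, 12.5 and 15.4 TPM without treatment and at 35.0, 29.8 and 29.2 TPM with CX3CL1. CASP1 reached 56.4, 47.5 and 68.1 TPM with IFN-γ and 67.1, 60.5 and 88.6 TPM with CX3CL1+IFN-γ. The first 3 groups did not overlap, and the IFN-γ and CX3CL1+IFN-γ groups did. CASP1 rose with CX3CL1 by 0.93 on the log2 scale (SE 0.19, adjusted p = 0.0196), with IFN-γ by 1.77 (SE 0.19, adjusted p = 5.2e-05), and on top of CX3CL1 with IFN-γ by 1.16 (SE 0.19, adjusted p = 0.00343). On top of IFN-γ, CX3CL1 gave 0.32 (SE 0.19, adjusted p = 0.975), and 0.20 without IFN-γ replicate 2 or 0.17 without CX3CL1+IFN-γ replicate 3. The CX3CL1 call was the least stable of these: it was lost with no filter on low genes (adjusted p = 0.0671), without no-treatment replicate 2 (0.105) or 3 (0.0991), and without CX3CL1 replicate 1 (0.0960) or 3 (0.0558). The interaction of CASP1 was -0.61 (SE 0.27, unadjusted p = 0.0407, adjusted p = 1).

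**Figure D3:**
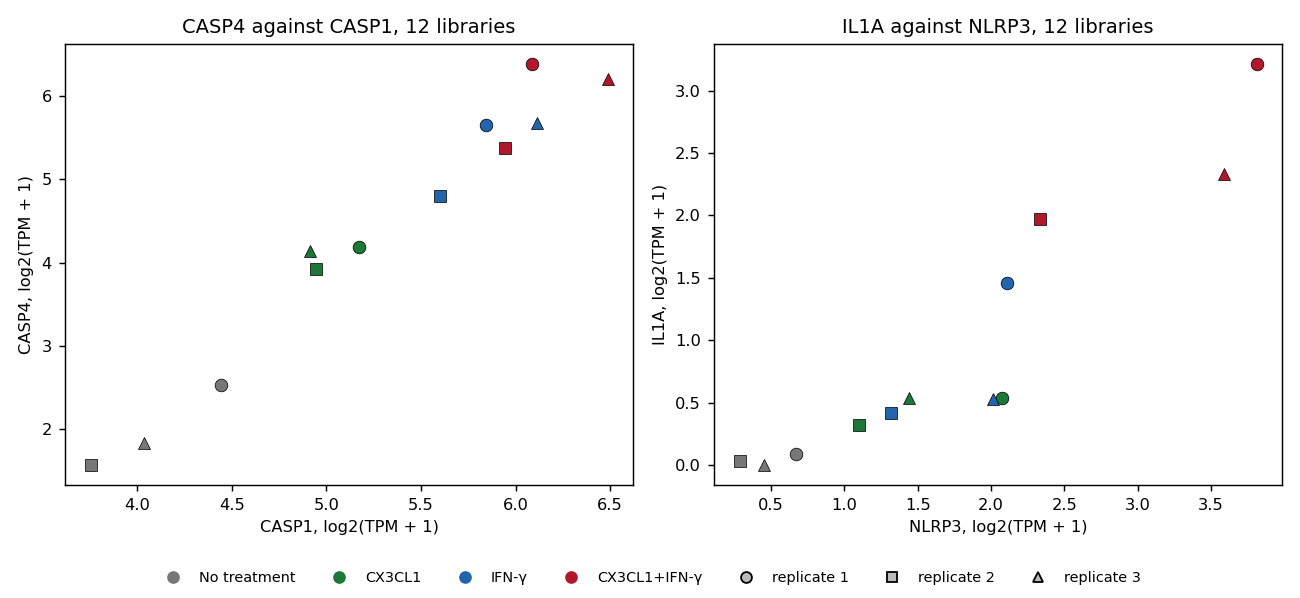
CASP4 against CASP1 (left) and IL1A against NLRP3 (right), log2(TPM + 1) on both axes, in the 12 libraries, with groups by color and replicate numbers by symbol. CASP4 spans more of its axis than CASP1, and the 3 CX3CL1+IFN-γ libraries have the highest values of IL1A.

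The balance of the pair shifted with treatment. Per length, CASP1 was 4.33, 6.33 and 5.99 times as abundant as CASP4 without treatment and 2.03, 2.11 and 1.75 times with CX3CL1. With IFN-γ the ratio was 1.14, 1.77 and 1.35, and with CX3CL1+IFN-γ it was 0.812, 1.49 and 1.22. Every treated library thus had a lower ratio than every untreated one, and in 1 library, CX3CL1+IFN-γ replicate 1, CASP4 was above CASP1. Over the 12 libraries their log2(TPM + 1) values had a Pearson r of 0.984, which includes the differences between groups. CASP12, the next gene on the chromosome, was at group means of 1.90, 2.89, 9.64 and 10.7 TPM. CASP12 rose with IFN-γ by 1.85 on the log2 scale (SE 0.22, adjusted p = 1.5e-04) and gave 0.43 with CX3CL1 (SE 0.22, adjusted p = 0.756).

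GSDMD, the pore-forming substrate of both caspases, was already high without treatment and had little spread there. It was at 40.0, 39.5 and 39.3 TPM without treatment and at 67.5, 57.2 and 69.2 TPM with CX3CL1. GSDMD reached 63.2, 74.1 and 84.0 TPM with IFN-γ and 90.8, 96.2 and 106.6 TPM with CX3CL1+IFN-γ. The CX3CL1 and IFN-γ groups overlapped each other, lay wholly above no treatment and lay wholly below CX3CL1+IFN-γ. GSDMD rose by 0.69 with CX3CL1 (SE 0.11, adjusted p = 0.00539), by 0.87 with IFN-γ (SE 0.11, adjusted p = 2.9e-04) and by 0.59 on top of CX3CL1 (SE 0.11, adjusted p = 0.00985), all on the log2 scale. The third of these was lost without CX3CL1+IFN-γ replicate 3 (adjusted p = 0.0633). On top of IFN-γ the difference was 0.41 (SE 0.11, unadjusted p = 0.00363), higher in 3 of 3 libraries, but it did not pass (adjusted p = 0.353).

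Of the IL-1 ligands and their antagonist, IL1A alone passed the filter on low values. IL1A was listed at 0.0602, 0.0205 and 0 TPM without treatment and was at 0.451, 0.245 and 0.451 TPM with CX3CL1. IL1A reached 1.75, 0.334 and 0.440 TPM with IFN-γ, where replicate 1 stood well above the others, and at 8.27, 2.93 and 4.05 TPM with CX3CL1+IFN-γ. Every CX3CL1+IFN-γ library lay above every other library, and the CX3CL1 and IFN-γ groups overlapped. In the fit without a block, IL1A was the only 1 of the 6 genes that rose when CX3CL1 was added to IFN-γ. Its log2 fold change was 1.71 (SE 0.30, adjusted p = 0.0283), and the same-number ratios were 4.72, 8.77 and 9.20. With the replicate number as a block, NLRP3 was called in this comparison too (limma, adjusted p = 0.00543).

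The call of IL1A for CX3CL1+IFN-γ against IFN-γ was lost with 0.1 TPM added (2.64, adjusted p = 0.0584), with no filter (adjusted p = 0.113), with the 6 compared libraries alone in the fit (adjusted p = 0.283), and without IFN-γ replicate 2 (0.175) or 3 (0.139), CX3CL1+IFN-γ replicate 1 (0.0928) or 3 (0.111), or no-treatment replicate 2 (0.0550) or 3 (0.0576). It stayed called with the replicate block (adjusted p = 0.00354). On top of CX3CL1, IFN-γ raised IL1A by 2.04 (SE 0.30, adjusted p = 0.00160), a call that held in all 8 settings and 6 omissions, with 3.32 where 0.1 TPM was added. IFN-γ alone gave 0.76 (SE 0.30, adjusted p = 0.149), which passed with the replicate block (adjusted p = 0.0343) and with 0.1 TPM added (2.60, adjusted p = 0.00582), and which was 0.43 without IFN-γ replicate 1 (adjusted p = 0.473). CX3CL1 alone gave 0.43 (SE 0.30, adjusted p = 0.971), higher in 3 of 3 libraries, and 1.92 with 0.1 TPM added (adjusted p = 0.0905). The interaction was 1.28 (SE 0.42, unadjusted p = 0.00933, adjusted p = 0.933), and 0.72 with 0.1 TPM added (adjusted p = 1).

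IL1B, the cytokine gene most tied to the inflammasome, stayed near 0 and was not tested. IL1B was listed at 0.0959, 0 and 0 TPM without treatment, 0.0449, 0 and 0 TPM with CX3CL1, 0.0735, 0.0355 and 0.0351 TPM with IFN-γ, and 0.157, 0.112 and 0 TPM with CX3CL1+IFN-γ. IL1RN, the receptor antagonist, was at 0.0844, 0 and 0 TPM, then 0.0791, 0 and 0.0144 TPM, then 0.0647, 0.0780 and 0.170 TPM, and then 0.194, 0.0742 and 0.216 TPM in the same order of groups. The groups of both genes overlapped, and the mean of each over the 12 libraries was below the filter. IL18, the other cytokine that caspase-1 matures, was at most 0.110 TPM and was not tested either.

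None of the 6 genes was called for the interaction, for which 0% of all genes tested were called with limma. With the replicate block 52 genes were called, CASP4 the 1 member among them, although the numbers of CX3CL1 and no treatment did not meet the check for pairing. Nor did those of CX3CL1+IFN-γ and no treatment. At an unadjusted p under 0.05 there were 3 of the 6 (CASP4, CASP1 and IL1A) and 273 of the 11878 genes tested, a share of all genes below 0.05. Without the block none passed the adjustment. CASP4 and CASP1 had negative values and IL1A a positive one, on the log2(TPM + 1) scale. As ratios of means the direction was reversed for IL1A, but not for CASP4 and CASP1. IL1A was 14.2 times as high with CX3CL1 as without treatment, where it was at most 0.0602 TPM, and 6.03 times on top of IFN-γ.

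The other genes of the pathway were taken from 7 lists, chosen by function, of which 48 genes passed the filter. With CX3CL1, 2 of the 48 rose and 46 did not pass, where 1.78% of all genes tested rose. With IFN-γ, 7 rose and 41 did not pass, where 5.91% of all genes rose. Of CX3CL1+IFN-γ against IFN-γ, 0 of the 48 were called by limma, where 0.345% of all genes rose. At an unadjusted p under 0.05 there were 4 of the 48 and 517 of the 11878 genes tested. For CX3CL1+IFN-γ against CX3CL1, 9 rose, beside 3.76%. No gene of these lists was called lower. The medians of their log2 fold changes were 0.03, 0.12, 0.05 and 0.11 in the same order of comparisons, beside -0.02, 0.03, -0.00 and 0.04 over all genes tested.

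By list, 0 of 6 other sensors were called in any comparison, where 0.345% to 5.91% of all genes rose. These 6 are the ones that passed the filter out of 13 listed, so the rest were not tested. AIM2, the sensor of cytosolic DNA, was at group means of 9.12 ± 0.705, 10.8 ± 3.68, 7.67 ± 1.22 and 9.95 ± 0.542 TPM (SD, n = 3), in the order no treatment, CX3CL1, IFN-γ and CX3CL1+IFN-γ. AIM2 was at a level above NLRP3 in every library of the first 3 groups, whereas with CX3CL1+IFN-γ NLRP3 was the higher of the pair in replicates 1 and 3. The AIM2 groups overlapped for both single treatments against no treatment.

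Of 12 regulators and upstream factors, 1 rose with CX3CL1 (1.78% of all genes), 3 with IFN-γ (5.91%) and 4 on top of CX3CL1 (3.76%). GBP2 and GBP5 encode guanylate-binding proteins, which open bacteria and their vacuoles to the caspase-11 pathway. GBP2 was at 15.2, 5.49 and 9.39 TPM without treatment, 75.9, 56.5 and 85.9 TPM with CX3CL1, 389.8, 311.5 and 734.3 TPM with IFN-γ, and 581.9, 478.6 and 938.6 TPM with CX3CL1+IFN-γ. GBP2 rose with CX3CL1 by 2.82 (SE 0.36, adjusted p = 0.00103) and with IFN-γ by 5.44 (SE 0.36, adjusted p = 2.9e-06), on the log2 scale.

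GBP5, which is also known to act on NLRP3, was at 0.265 to 0.557 TPM without treatment and at 25.2, 28.5 and 117.7 TPM with IFN-γ, a log2 fold change of 5.00 (SE 0.55, adjusted p = 6.4e-05). With CX3CL1, GBP5 was at 2.57 to 6.55 TPM, with no overlap with no treatment, and its 1.96 did not pass (SE 0.55, adjusted p = 0.124). TXNIP, a thioredoxin-binding protein that has been linked to NLRP3, rose with IFN-γ by 1.32 (SE 0.23, adjusted p = 0.00262) and gave 0.05 with CX3CL1 (SE 0.23, adjusted p = 1). The fourth regulator that rose on top of CX3CL1, CARD6, named after its values were seen, gave 0.48 (SE 0.12, adjusted p = 0.0381).

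Of 7 other inflammatory and apoptotic caspases, CASP12 alone was called, with IFN-γ (5.91% of all genes) and on top of CX3CL1 (3.76%). Of the other gasdermins 1 passed the filter, GSDME, and it was not called in any comparison. IL18BP, the secreted protein that neutralizes IL-18, was the 1 tested gene among the other IL-1 family cytokines and binding proteins. IL18BP was at 1.79, 2.11 and 2.81 TPM without treatment, 1.64, 1.39 and 2.96 TPM with CX3CL1, 13.6, 11.5 and 17.4 TPM with IFN-γ, and 14.3, 12.8 and 18.7 TPM with CX3CL1+IFN-γ. The IFN-γ groups lay far above the groups without IFN-γ, with a log2 fold change of 2.22 for IFN-γ (SE 0.21, adjusted p = 2.2e-05), while CX3CL1 gave -0.14 (SE 0.21, adjusted p = 1).

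Of 6 receptors of the IL-1 family, 1 rose with CX3CL1 (1.78% of all genes), 1 with IFN-γ (5.91%) and 2 on top of CX3CL1 (3.76%). IL1RL1, the receptor of IL-33 (ST2), was at 61.0, 33.4 and 42.1 TPM without treatment, 113.5, 121.3 and 104.6 TPM with CX3CL1, 256.8, 195.3 and 268.2 TPM with IFN-γ, and 419.9, 319.4 and 442.0 TPM with CX3CL1+IFN-γ. The 4 groups of IL1RL1 did not overlap, and it rose by 1.34 with CX3CL1 (SE 0.20, adjusted p = 0.00246) and by 2.41 with IFN-γ (SE 0.20, adjusted p = 7.6e-06), while its 0.71 for CX3CL1+IFN-γ against IFN-γ did not pass (SE 0.20, adjusted p = 0.334). IL1RL2, the receptor of the IL-36 cytokines, rose on top of CX3CL1 by 0.47 (SE 0.12, adjusted p = 0.0474). IL1R1, the receptor through which IL-1α and IL-1β signal, was at group means of 19.8 ± 0.981, 19.2 ± 3.32, 15.8 ± 1.06 and 18.1 ± 3.14 TPM (SD, n = 3) and was called in no comparison; with IFN-γ it gave -0.31 (SE 0.14, adjusted p = 0.207). Of 15 genes of IL-1 receptor signalling, 1 rose with IFN-γ (5.91% of all genes) and on top of CX3CL1 (3.76%). That gene, MYD88, the adaptor of the IL-1 receptor, rose by 1.02 (SE 0.17, adjusted p = 0.00167) and 0.74 (SE 0.17, adjusted p = 0.0218).

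**Figure D4:**
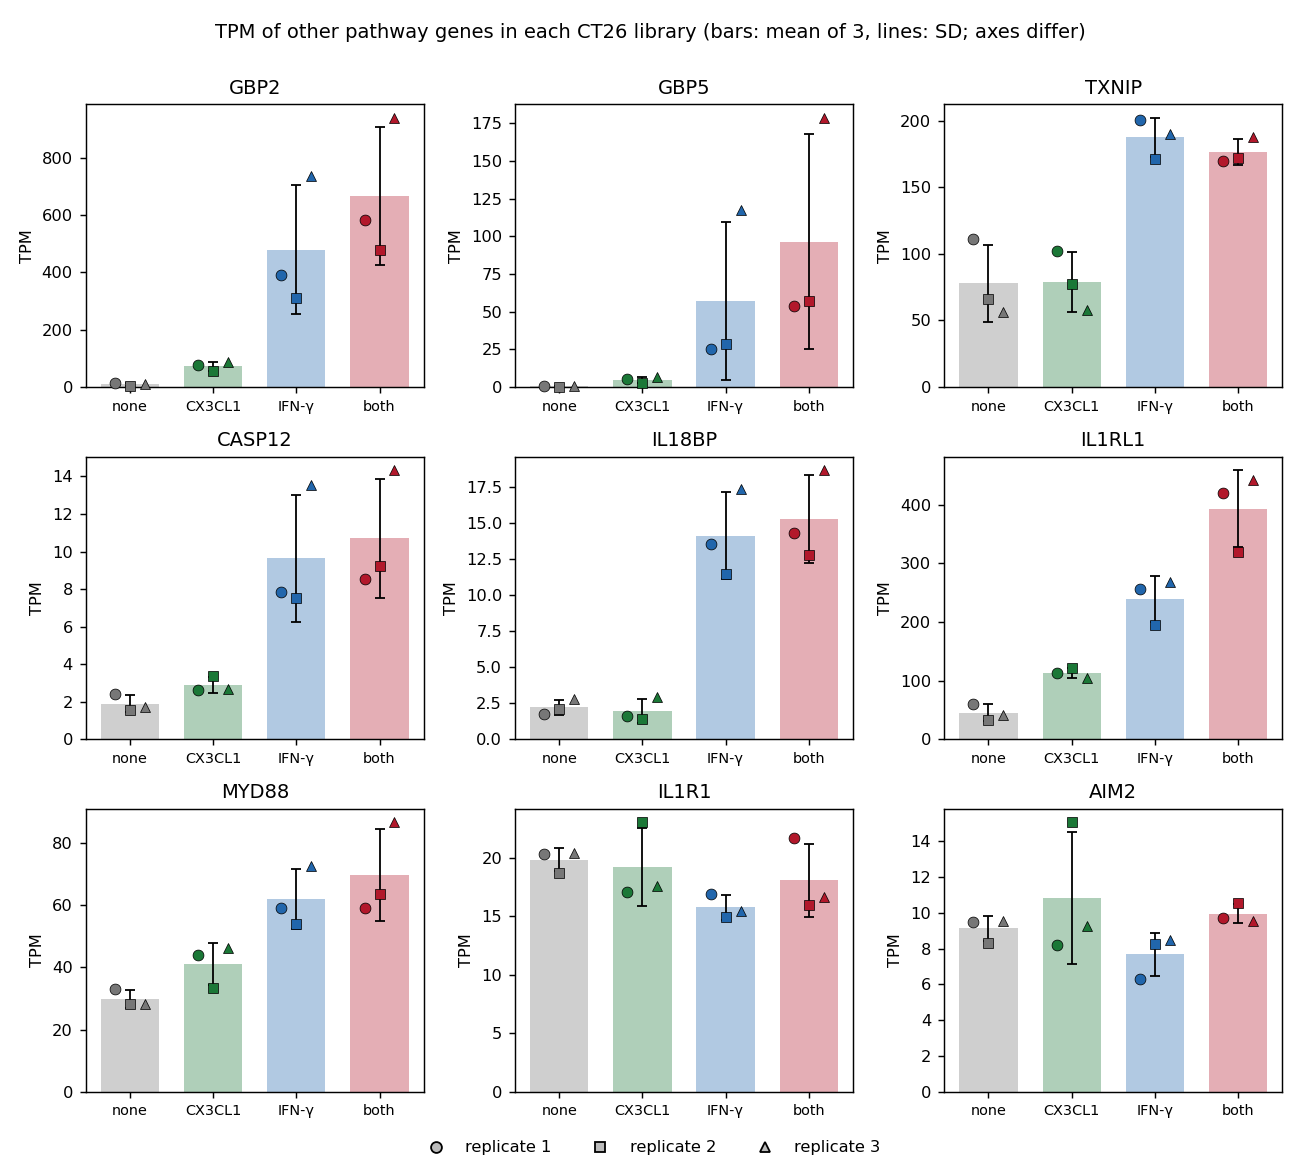
TPM (y axis, its own scale in each panel) of 9 other pathway genes in each library (points, 3 per group), with group means (bars) and SD (lines). GBP2, GBP5, CASP12 and IL18BP are high in the groups with IFN-γ, IL1RL1 climbs over all 4 groups, and IL1R1 and AIM2 were called in no comparison.

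The genes whose log2(TPM + 1) followed each member most closely over the 12 libraries are given as a description, since all points share the same 4 groups. For NLRP3 they were TNFRSF1B (r = 0.972), CCL7 (r = 0.966) and BCL3 (r = 0.964), for IL1A SOCS3 (r = 0.986), EMILIN2 (r = 0.969) and OSMR (r = 0.966), and for GSDMD SLFN2 (r = 0.974), B4GALT5 (r = 0.973) and CXCL10 (r = 0.973). For CASP1 they were GBP2B (r = 0.992), SERPINB9 (r = 0.992) and SERPINB6B (r = 0.991), and for CASP4 IL1RL1 (r = 0.988), UPP1 (r = 0.988) and LGALS9 (r = 0.988). No gene was in the closest 3 of more than 1 member. NEK7, whose group means span 0.38 on the log2 scale, was not ranked.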

How the data were processed

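RNA sequencing of 12 CT26 libraries was analysed, in 4 groups of 3 biological replicates taken from the sample labels; doses and time came from the study's methods and legends. Per the labels, total RNA was made into strand-specific mRNA libraries, and the submitters' processing notes name mm10, STAR 2.7.3a and DESeq2 1.22.1. The authors deposited TPM values, scaled to 1000000 in each library. The annotation and how counts became TPM are not given in the sources used here. Reads and gene counts were not analysed here, so depth is unknown.

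Symbols with a mean of at least 0.2 TPM (11878) were tested with limma 3.58.1 (R 4.3.3; lmFit, then eBayes with its trend option) applied to log2(TPM + 1), with all 12 libraries in 1 fit, no block, and Benjamini-Hochberg adjustment within each comparison; calls are at 0.05. The script was tested on simulated data. The alternatives were 0.1 TPM added, no filter, a filter of 1 TPM, median-ratio scaling, quantile normalization, no trend, the compared libraries alone, the replicate number as a block, and leaving out each library. Positions are from GENCODE (GRCm38) and promoters from RefSeq.

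The members and lists were chosen with earlier results of these data known. All 9 members are named; other pathway genes are named up to 3 a list, by lowest adjusted p among those called, with IL18, AIM2 and IL1R1 in any case. Closest genes were ranked, 3 a member, among genes of at least 1 TPM for members whose group means span at least 1 on the log2 scale.

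Replicate numbers were taken to pair libraries where every same-number pair of deviations from the group means correlated above 0.1. This held for IFN-γ and no treatment (0.220 to 0.460), CX3CL1+IFN-γ and IFN-γ (0.630 to 0.649) and CX3CL1+IFN-γ and CX3CL1 (0.351 to 0.428), from the data alone. It did not hold for CX3CL1 and no treatment (0.00472 in replicate 2) or for CX3CL1+IFN-γ and no treatment (0.0324 in replicate 3).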

Additional observations from a re-analysis of the deposited data

How the results depend on the processing

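The calls of CASP4 and GSDMD with CX3CL1, of CASP4, CASP1 and GSDMD with IFN-γ, and of CASP4, CASP1 and IL1A for CX3CL1+IFN-γ against CX3CL1 held under every alternative run. Numbers of tested members called moved between 2 and 4 with CX3CL1 and between 3 and 5 with IFN-γ. For CX3CL1+IFN-γ against IFN-γ, 1 member was called, but 0 with 0.1 TPM added, with no filter or with the compared libraries alone, 2 with the replicate block, and 0 to 2 when 1 library was left out. Against CX3CL1, 3 to 5 were called when 1 library was left out, the lowest without CX3CL1+IFN-γ replicate 3. Without CX3CL1 replicate 2, which stood apart, 3 members were called with CX3CL1 and 4 for CX3CL1+IFN-γ against CX3CL1.

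Over all genes tested, the replicate block gave 455 calls in place of 232 for CX3CL1, 1929 in place of 932 for IFN-γ, 95 in place of 43 for CX3CL1+IFN-γ against IFN-γ and 1369 in place of 558 against CX3CL1. For the interaction the block gave 52 in place of 0, and 1 member, CASP4 (-1.49, adjusted p = 0.0226). The numbers of CX3CL1 and no treatment share only a number by the check used, and there the block also called NLRP3 (adjusted p = 0.0101); the blocked values that changed other calls stand beside them, and it changed no other call of a member. CX3CL1+IFN-γ against IFN-γ had 28 calls with no filter and 20 with the compared libraries alone, against CX3CL1 344 with the compared libraries alone, and the interaction 1 with quantile normalization. Leaving out 1 library gave 152 to 268 calls for CX3CL1 (lowest without no-treatment replicate 3), 530 to 1499 for IFN-γ (lowest without no-treatment replicate 3, 551 without IFN-γ replicate 3, highest without CX3CL1 replicate 2), 16 to 54 for CX3CL1+IFN-γ against IFN-γ, 270 to 668 against CX3CL1 and 0 to 11 for the interaction (11 without no-treatment replicate 1). Direction changed for values that were not called: NLRP3 in the interaction (0.36) was -0.34 with 0.1 TPM added (0.078 to 0.82 when 1 library was left out), and NEK7 ranged when 1 library was left out from -0.39 to 0.11 with CX3CL1, -0.16 to 0.20 for CX3CL1+IFN-γ against IFN-γ, -0.47 to 0.038 against CX3CL1 and -0.091 to 0.42 in the interaction. The interaction of GSDMD (-0.28) was -0.18 without IFN-γ replicate 3. The cause was not tested. TPM gives no depth, so how far PYCARD, IL1B and IL1RN lie under detection is unknown.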

Other observations

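2 further genes of the IL-1 family, named after their values were seen, are given as values. IL33, the ligand of the receptor IL1RL1, was below the filter on low values: it was at 0.0416, 0.0424 and 0.0158 TPM without treatment, 0.117, 0.218 and 0.227 TPM with CX3CL1, 0.0638, 0.0308 and 0.0456 TPM with IFN-γ, and 0.137, 0.171 and 0.137 TPM with CX3CL1+IFN-γ. The 6 libraries with CX3CL1 all lay above the 6 without it; this was not tested. IL18RAP, the accessory chain of the IL-18 receptor, was at group means of 58.7 to 73.4 TPM, while the gene of the binding chain, IL18R1, was at most 0.0584 TPM.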
